A study of Mus musculus with 34 samples.

Results

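Livers of Bcl2TG mice, which express a Bcl2 transgene in adipocytes, were compared between a high-fat diet (HFD) and a chow diet to find which liver genes still responded to the HFD. All libraries labelled Bcl2TG were used, which are 5 HFD-fed livers (numbered 1, 2, 3, 5 and 6) and 3 chow-fed livers (numbered 1, 2 and 3), 8 of the 34 samples of the series. Bcl2TG mice, also called Bcl2AdTG, carry a Cre-inducible Bcl2 transgene with Adipoq-Cre, so the transgene is driven in adipocytes, and the WT mice are their littermates. The mice were male and were placed at 8 weeks of age on the HFD (60% of kcal from fat) or on chow (10% of kcal from fat), and the count columns give 3 months of diet. Polyadenylated RNA of whole liver was sequenced. The same diet comparison in the 8 WT livers (5 HFD-fed and 3 chow-fed) of the same experiment, and in 9 S100a8f/f livers (5 HFD-fed and 4 chow-fed, S100a8 flanked by loxP sites and no Cre in the label) of the second experiment, served as references. Labels do not say whether each library is a separate animal beyond its own number.

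Hepatocytes answer dietary fat with nuclear receptors that sense fatty acids and sterols and set the level of genes for fat uptake, storage and oxidation. Their sex-biased genes, many of them cytochrome P450s and urinary or carrier proteins, follow the pulsatile growth hormone secretion of males or the steadier secretion of females. The liver also holds resident macrophages, the Kupffer cells, and in fatty liver disease it recruits monocyte-derived macrophages, while stellate cells deposit collagen.

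Total counts were between 19639839 and 28187903 in the chow-fed Bcl2TG livers and between 22866258 and 39909892 in the HFD-fed ones, with HFD-fed livers 5 and 6 the lowest of their group (22866258 and 24888055). The first principal component of the 8 livers (over the 500 genes of largest variance, 43.6% of their variance) had scores of -23.7 to -19.9 in the chow-fed livers and 8.7 to 21.4 in the HFD-fed livers. On the second (19.5%) the HFD-fed livers 1, 2 and 3 had scores of 10.8 to 13.9 and the HFD-fed livers 5 and 6 had scores of -15.9 and -17.8, so the HFD-fed group was not uniform. Of the hepatocyte marker list, 0 of 9 members were called, and Alb, the gene of serum albumin, had 70393 CPM (counts per gene relative to the total of a library, on a fixed scale) on chow and 70551 on HFD. Liver Bcl2 does not check the labels, because the transgene is driven in adipocytes. It had 4.17, 8.44 and 6.82 CPM in the chow-fed and 8.98 to 14.9 CPM in the HFD-fed Bcl2TG livers (log2 fold change 0.79 ± 0.59, standard error, SE, adjusted p = 0.58).

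**Figure D1:**
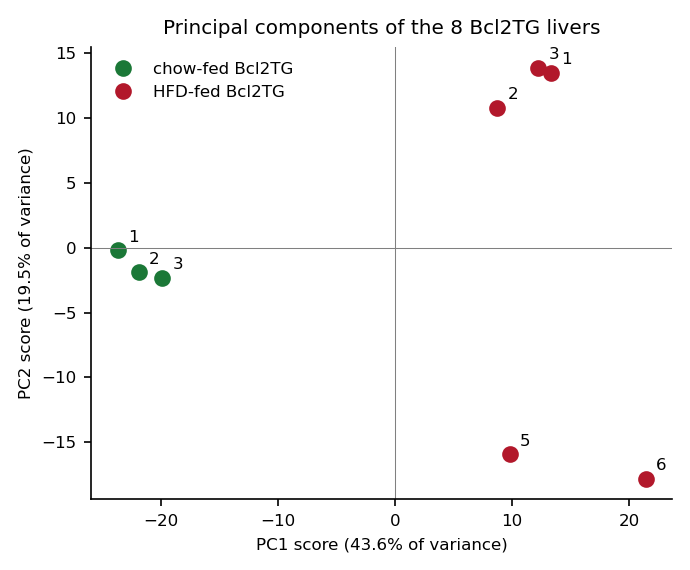
Scores of the 8 Bcl2TG livers on the first (horizontal axis) and second (vertical axis) principal component of log2 CPM, with the liver's number beside each point. The 3 chow-fed livers have first-component scores of -23.7 to -19.9 and the 5 HFD-fed livers 8.7 to 21.4, and HFD-fed livers 5 and 6 lie apart from 1, 2 and 3 on the second component.

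The HFD changed 373 of 14436 genes in Bcl2TG livers at an adjusted p under 0.05 (edgeR quasi-likelihood test, Benjamini-Hochberg adjustment, used for every adjusted p below). Of these, 191 were higher (1.32% of the genes tested) and 182 lower (1.26%). Of the 848 genes in any of the gene lists used below, 9.79% were called. The lists were chosen with earlier results of these data known, so counts of called members stand beside both shares. Called genes had a median absolute log2 fold change of 1.14, and 110 of the higher and 103 of the lower genes changed more than 2-fold. The CPM of the chow-fed and HFD-fed livers did not overlap in 366 of the 373 called genes, against 15.8% of all genes tested. Leaving out chow-fed liver 1, 2 or 3 left 122, 115 or 184 called genes, and leaving out any 1 HFD-fed liver left 251 to 365. Of 86 called genes chosen for naming, 33 stayed called without each of the 8 livers in turn, among them Cyp2b9, Cyp2b10, Cyp2b13, Cyp17a1, Cyp4a12b, Cyp3a11, Vldlr, Bdh1, Csad, Dbp, Bmal1, Creld2, C1qa, C1qb, C1qc, Myc, Onecut1, Il6ra, Hamp2 and Fabp5. The other 53 lost the call without at least 1 liver, most often a chow-fed one (42, 46 and 38 without chow-fed liver 1, 2 and 3), and none changed direction.

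Most genes that moved in Bcl2TG livers moved the same way in WT livers, where 8.40% of all genes were called higher and 6.98% lower. Of the 191 genes higher in Bcl2TG, 129 (67.5%) were called higher in WT, none was called lower and 62 were not called. Of the 182 lower genes, 111 (61.0%) were called lower in WT, 4 were called higher and 67 were not called. The shared genes were 10.6% of the 1213 genes called higher and 11% of the 1007 called lower in WT. A test of the difference between the diet effects of the genotypes (interaction) called 70 genes in all (0.485%), 19 of which are among the 373. It called 13 of the 129 genes that had no call in WT (4 of the higher and 9 of the lower), so a missing call in WT is in most cases not a shown difference. The interaction count depended on single livers. It was 7, 13 and 0 without chow-fed Bcl2TG liver 1, 2 and 3, 2, 9 and 36 without chow-fed WT liver 1, 2 and 3, 38 and 108 without HFD-fed Bcl2TG liver 1 and 6, and 175, 35, 31 and 43 without HFD-fed WT liver 2, 3, 4 and 5, so every called difference given below fails without chow-fed Bcl2TG liver 3.

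**Figure D2:**
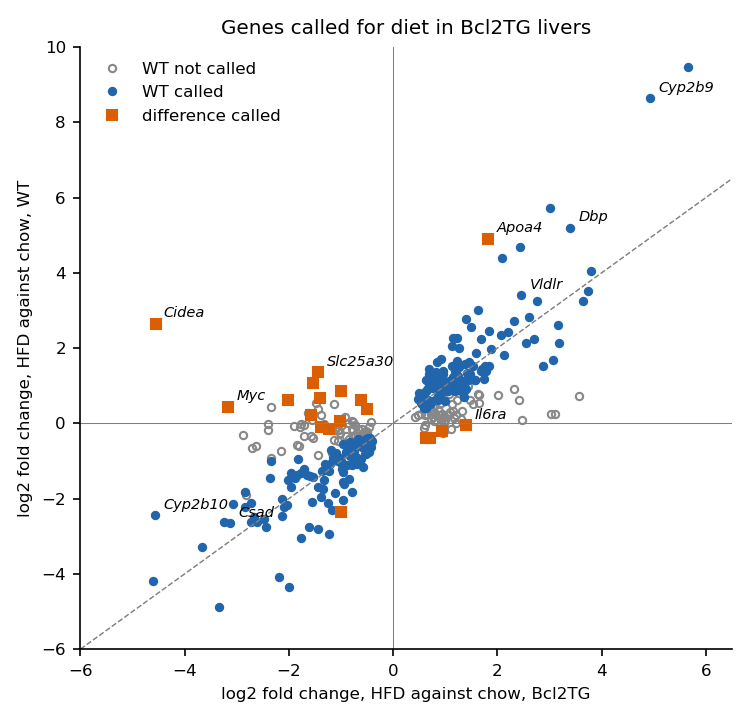
Each point is 1 of the 373 genes called for diet in Bcl2TG livers, with its log2 fold change (HFD against chow) in Bcl2TG on the horizontal and in WT on the vertical axis, where the dashed line marks equal change. Filled circles are genes also called in WT, open circles are not called in WT, and squares are the 19 genes whose diet effects differed between the genotypes.

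The highest fold changes in Bcl2TG livers were in cytochrome P450 genes of the Cyp2b family that female mouse livers express more than male ones. Cyp2b9, a steroid and drug hydroxylase, had 3.04, 1.12 and 13.4 CPM in the 3 chow-fed livers and 185, 126, 212, 112 and 239 CPM in the 5 HFD-fed livers. Every HFD-fed liver was above every chow-fed liver, and the log2 fold change was 4.93 ± 0.63 (SE, adjusted p = 0.00082). Cyp2b13 had at most 0.525 CPM on chow and 4.42 to 20.3 CPM on HFD (log2 fold change 5.65 ± 0.68, adjusted p = 0.000457). In WT livers the log2 fold changes were 8.64 for Cyp2b9 and 9.46 for Cyp2b13, and the differences from Bcl2TG did not pass the test (adjusted p = 0.055 and 0.286). Counts of these near-identical copies can be shared between them by the alignment.

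Their relative Cyp2b10, the member induced by drugs through the constitutive androstane receptor, went the other way. It had 8.14, 6.08 and 10.7 CPM on chow and 0.346, 0.463, 0.262, 0.0463 and 0.598 CPM on HFD, and no HFD-fed liver reached the lowest chow-fed one (log2 fold change -4.57 ± 0.45, adjusted p = 0.000115). In WT livers it fell by 2.45 on the log2 scale.

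Of the female-biased hepatocyte list, 7 of 19 measured members were called higher and 2 lower, with a median log2 fold change of 1.10 beside 0.03 over all genes. Besides the pair of Cyp2b genes, the higher members were Hao2, a peroxisomal hydroxyacid oxidase (0.428, 0.579 and 1.42 CPM on chow, 2.85 to 12.1 CPM on HFD), Cyp17a1, the steroid 17-alpha-hydroxylase (2.37, 5.58 and 6.09 CPM on chow, 20.1 to 58.6 CPM on HFD), Cyp2a5, Cyp39a1 and Acot3. The lower members were Cyp2b10 and Prom1. Without chow-fed liver 1 or 2, 4 members stayed called higher. The WT livers had 13 members called higher and 1 lower, with a median of 2.28, and the interaction called 0 of the 19 members.

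Of 25 measured male-biased hepatocyte genes 6 were called lower and 0 higher, with a median log2 fold change of -1.05, and 16 were at an unadjusted p under 0.05. Cyp4a12b, a fatty acid hydroxylase typical of male liver, had 69.4, 67.7 and 56.1 CPM on chow and 3.48, 13.1, 2.5, 9.9 and 2.85 CPM on HFD (log2 fold change -3.34 ± 0.53, adjusted p = 0.0027). Its near-identical neighbour Cyp4a12a fell by 2.14 on the log2 scale. HFD-fed livers 2 and 5 kept the highest levels of both copies, with 97.0 and 96.6 CPM of Cyp4a12a against 18.6 to 34.9 CPM in the other 3. The remaining called members were Socs2, Ugt2b38, Selenbp2 and Nat8. WT livers had 22 of 25 members called lower with a median of -2.02, yet the interaction called 1 member, Cyp7b1, an oxysterol hydroxylase (log2 difference 1.92, adjusted p = 0.0447, outside the rule for naming genes and named after its value was seen). The count of 6 was sensitive to single livers, with 1 member called without chow-fed liver 1 or 2, 2 without chow-fed liver 3 or HFD-fed liver 1, and 3 without HFD-fed liver 3.

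**Figure D3:**
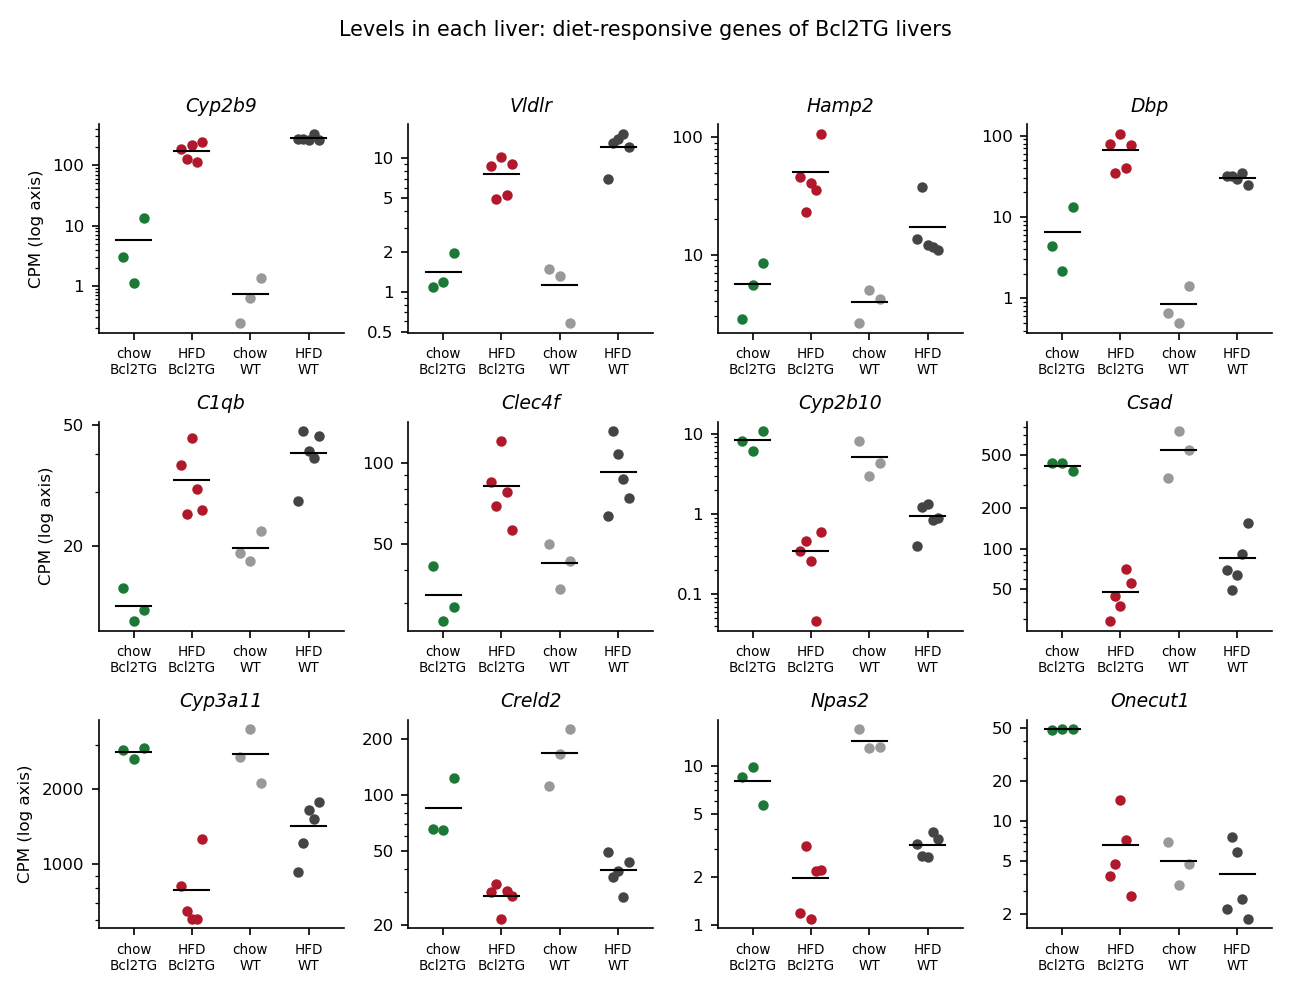
CPM on a log axis of 12 diet-responsive genes in each liver of the 4 groups, where each point is a liver and each line the group mean. In the Bcl2TG groups the points of chow-fed and HFD-fed livers do not overlap for any of the 12 genes.

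Several P450s of drug metabolism were also lower. Cyp3a11, the main drug-oxidizing P450 of mouse liver, had 2866, 2635 and 2906 CPM on chow and 815, 647, 604, 604 and 1264 CPM on HFD (log2 fold change -1.83 ± 0.25, adjusted p = 0.00121). Liver 6 was the highest of the HFD-fed group and still below the chow-fed livers. Cyp2c29 and Cyp2c55, arachidonic acid epoxygenases, fell by 1.33 and 1.96 on the log2 scale. Of the P450 families 1 to 3, 4 of 36 members were called lower and 2 higher, with a median of -0.01. The shares over all genes were 1.26% lower and 1.32% higher, and 9.79% of listed genes were called in either direction. The higher members of the P450 list were Cyp2a22 and Ahr, the receptor for dioxin and related ligands. Ahr had 26.9, 29.1 and 27.5 CPM on chow and 41.8 to 65.0 CPM on HFD, while the WT livers had means of 49.2 CPM on chow and 54.6 CPM on HFD (interaction adjusted p = 0.148). The diet call of Ahr was lost without chow-fed liver 1 (adjusted p = 0.0527).

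Among conjugation enzymes, 1 of 37 members was called higher and 3 lower (1.32% and 1.26% over all genes), with a median of -0.05. The sulfotransferase gene Sult1c2 had 2.57, 2.1 and 3.36 CPM on chow and 6.66 to 9.06 CPM on HFD, with a narrow spread within each diet (log2 fold change 1.59 ± 0.23, adjusted p = 0.00181). The lower ones were Gsta2, a glutathione transferase, and the glucuronosyltransferases Ugt1a5 and Ugt2b35, which belong to families of near-identical copies. The calls of Gsta2, Ugt1a5 and Ugt2b35 were lost with single chow-fed livers left out, at adjusted p up to 0.0718, 0.103 and 0.0825.

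Genes of the Kupffer cell list rose with the diet, and the list of recruited macrophages had fewer calls, a difference that was not tested. The Kupffer cell list includes C1qa, C1qb and C1qc, which the paper reports as higher in S100A8-positive than in S100A8-negative liver macrophages. The list therefore does not mark resident cells alone. Tyrobp, Spi1, Fcgr3 and Lyz2, which are in neither list, rose too (log2 fold changes 1.31, 1.43, 1.15 and 1.17, chosen after their values were seen). Of the 10 Kupffer cell markers, all measured, 7 were called higher and 0 lower (median log2 fold change 1.43), and all 10 had an unadjusted p under 0.05. C1qb, a chain of the complement starter C1q, had 14.6, 11.4 and 12.4 CPM on chow and 36.8, 25.5, 45.3, 30.9 and 26.2 CPM on HFD (log2 fold change 1.36 ± 0.20, adjusted p = 0.00195). C1qa and C1qc, the other chains, had the log2 fold changes 1.36 and 1.37. Clec4f, a lectin that only Kupffer cells express in mouse, had 41.3, 25.8 and 29.2 CPM on chow and 84.6, 69.0, 120, 77.7 and 56.2 CPM on HFD, again without overlap (log2 fold change 1.34 ± 0.27, adjusted p = 0.0112, and 0.0914 and 0.0666 without chow-fed liver 2 and 3). The complement receptor gene Vsig4, the folate receptor gene Folr2 and Cd5l, which encodes a secreted scavenger protein, were the other called members, with log2 fold changes of 1.40, 2.71 and 1.53. The calls of Vsig4, Folr2 and Cd5l were lost with single livers left out, at adjusted p up to 0.106, 0.172 and 0.194. Folr2 had at most 0.311 CPM on chow.

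Not called were Timd4, the phosphatidylserine receptor of resident macrophages, with 2.53, 1.96 and 1.78 CPM on chow and 6.78, 2.98, 12.9, 2.87 and 3.49 CPM on HFD (adjusted p = 0.0849), Marco and Adgre1. HFD-fed liver 3 stood out in these markers. It had 45.9 CPM of the scavenger receptor gene Marco against 3.66 to 10.1 CPM in the other 4 HFD-fed livers, and 27.8 CPM of Adgre1, which encodes F4/80, against 3.86 to 9.92 CPM. The summed level of the 10 markers was 90.0 to 138 CPM in the chow-fed and 194 to 497 CPM in the HFD-fed Bcl2TG livers, and 156 to 169 CPM and 239.6 to 436 CPM in the WT livers, where 7 members were also called higher. The count in Bcl2TG was 3 without chow-fed liver 2 or 3, and 5 without HFD-fed liver 3. In whole-liver RNA, more cells of a type and more RNA per cell cannot be told apart. Apart from Folr2, the Kupffer cell markers lie outside the rule for the highest and lowest genes and are named because their values had been seen.

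The 13 markers of monocyte-derived and lipid-associated macrophages had 0 called higher and 1 called lower by edgeR in Bcl2TG livers (median 0.23), with 6 at an unadjusted p under 0.05, while DESeq2 called 2 higher and 2 lower and limma-voom 2 higher and 2 lower. The WT livers had 8 called higher and 1 lower (median 1.40). Trem2, the lipid receptor that marks lipid-associated macrophages, had 0.35, 0.253 and 0.472 CPM on chow and 0.595 to 1.34 CPM on HFD (log2 fold change 1.32 ± 0.51, adjusted p = 0.205), and a WT mean of 0.545 CPM on chow and 2.96 CPM on HFD. Gpnmb had at most 0.5 CPM in any Bcl2TG liver and a mean of 4.62 CPM in HFD-fed WT livers. Ccr2, the chemokine receptor of recruited monocytes, had 1.64, 1.48 and 1.84 CPM on chow and 1.11 to 2.58 CPM on HFD, so the diet groups overlapped. The lower member was Fabp5, a fatty acid carrier that hepatocytes also express (26.4, 40.9 and 14.5 CPM on chow, 1.59 to 6.99 CPM on HFD, log2 fold change -2.85 ± 0.42, adjusted p = 0.0019). It fell in WT livers too (log2 fold change -1.83). The interaction called 0 of the 13 markers, so the difference between genotypes was not shown for any single one.

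**Figure D4:**
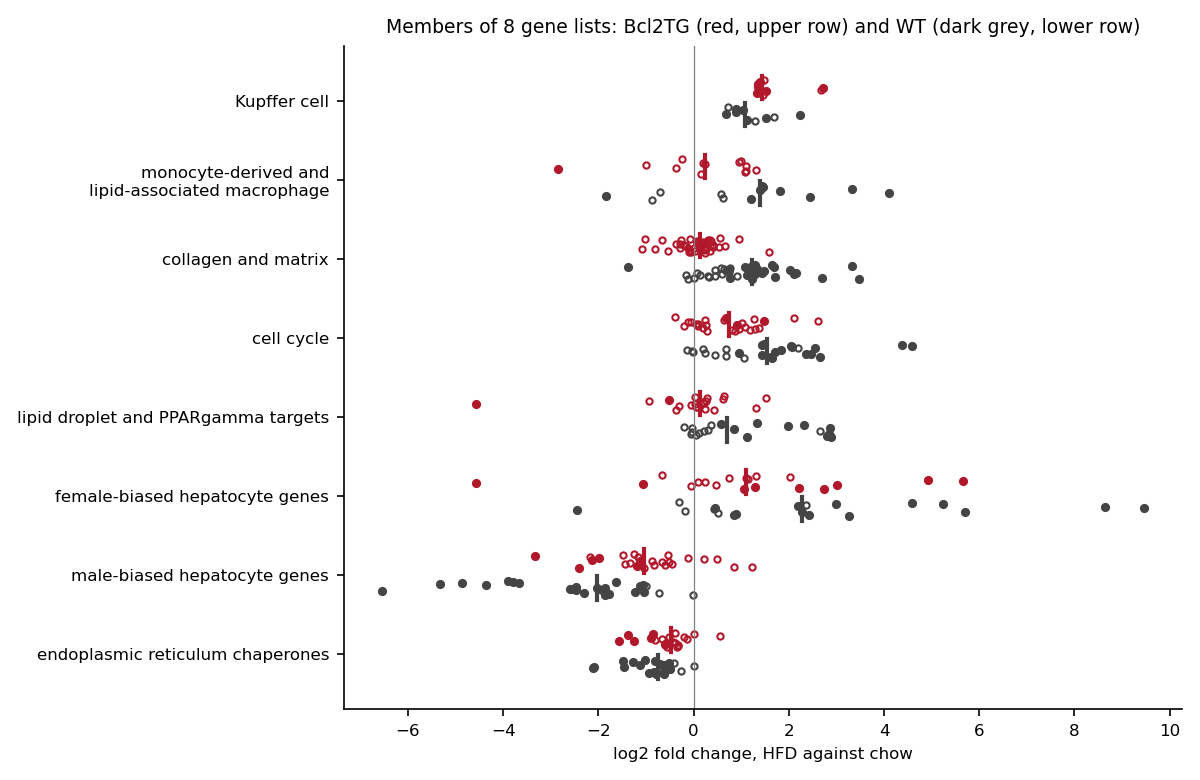
Log2 fold changes (HFD against chow) of the measured members of 8 gene lists in Bcl2TG livers (red, upper row of each list) and in WT livers (dark grey, lower row), with filled points for genes called at an adjusted p under 0.05 and a vertical bar at the median. Kupffer cell members lie above 0 in both genotypes, while the collagen and matrix median is 0.13 in Bcl2TG and 1.22 in WT.

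Of 47 collagen and matrix genes 0 were called in either direction by edgeR in Bcl2TG livers, with 5 at an unadjusted p under 0.05 and a median log2 fold change of 0.13, and 2 members were called higher without HFD-fed liver 6. DESeq2 called 0 higher and 1 lower, and limma-voom 5 higher and 2 lower. Col27a1, a fibrillar collagen chain, was the 1 that DESeq2 called, with 85.2, 84.7 and 84.8 CPM on chow and 38.6 to 69.9 CPM on HFD (log2 fold change -0.66, adjusted p = 0.0523 with edgeR, 0.0117 with DESeq2 and 0.00485 with limma-voom). WT livers had 28 called higher and 1 lower with a median of 1.22. Col1a1, the alpha-1 chain of type I collagen, had 5.96, 10.6 and 10.5 CPM on chow and 10.7, 15.1, 7.59, 3.1 and 8.83 CPM on HFD (log2 fold change 0.02 ± 0.33, adjusted p = 0.984). The diet groups overlapped fully, and in WT livers the mean went from 8.45 to 54.7 CPM. The difference of diet effects was -2.67 ± 0.47 on the log2 scale (adjusted p = 0.0268), and 4 matrix genes in all had a called difference. Of 9 stellate cell markers 1 was called by edgeR, Colec11, a collectin of the complement system, with 22.4, 22.1 and 24.7 CPM on chow and 30.6 to 42.4 CPM on HFD. The stellate cell list had a median log2 fold change of 0.42. DESeq2 called 3 and limma-voom 5 of its members higher, with 0 lower in either.

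Of 26 measured genes of cell division 3 were called higher and 0 lower by edgeR (median 0.74), with 11 at an unadjusted p under 0.05. DESeq2 and limma-voom each called 6 higher and 0 lower. WT livers had 16 called higher (median 1.54), and the interaction called 0. Over all genes tested 1.32% were called higher, and of the genes in any list 9.79% were called in either direction. The proliferation marker Mki67 had 1.13, 0.797 and 1.1 CPM on chow and 1.81, 4.19, 2.19, 3.24 and 2.76 CPM on HFD (log2 fold change 1.49 ± 0.35, adjusted p = 0.0282). Its call was lost without any of the chow-fed livers (0.0952, 0.166 and 0.0901) and without HFD-fed liver 2 (0.0605). The replication helicase genes Mcm6 and Mcm3 had log2 fold changes of 0.91 and 0.68 (adjusted p = 0.0282 and 0.0483, and up to 0.136 and 0.23 with single livers left out). All 3 had higher levels in every HFD-fed than in every chow-fed liver.

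Among genes of fatty acid synthesis, 1 of 21 members was called higher and 2 lower, with a median log2 fold change of -0.31. Beside this stand 1.32% higher and 1.26% lower over all genes, and 9.79% of listed genes in either direction. Scd1, the desaturase that makes oleate, had 8159.5, 14052 and 12196 CPM on chow and 4343, 5357, 6599, 3307 and 6461 CPM on HFD, with every HFD-fed liver below every chow-fed one (log2 fold change -1.14 ± 0.27, adjusted p = 0.0339, and 0.0575 to 0.198 without chow-fed liver 2 or 3 or HFD-fed liver 1, 2 or 5). Acacb, the mitochondrial acetyl-CoA carboxylase, had 75.7, 184 and 142 CPM on chow and 34.0 to 72.5 CPM on HFD (log2 fold change -1.44 ± 0.32, adjusted p = 0.0211, and 0.166, 0.0813 and 0.0546 without chow-fed liver 2 or 3 or HFD-fed liver 1). In WT livers neither passed the test (log2 fold changes 0.50 and 0.39), and the differences between the genotypes did not pass either (adjusted p = 0.0799 and 0.089). In S100a8f/f livers both were called higher, with log2 fold changes of 1.92 and 1.48. Fads2, the delta-6 desaturase, was the higher member (log2 fold change 0.84, adjusted p = 0.0388), but its diet groups overlapped (421, 585 and 444 CPM on chow, 574 to 1074 CPM on HFD) and the call was lost without 7 of the 8 livers in turn (0.0599 to 0.199, called only without HFD-fed liver 1). Fasn, the fatty acid synthase, had overlapping groups (757, 1885 and 1209 CPM on chow, 411 to 929 CPM on HFD, adjusted p = 0.365). The cholesterol synthesis list had 0 of 24 members called by edgeR, with 11 at an unadjusted p under 0.05 and a median of -0.52, while DESeq2 called 2 lower and limma-voom 10 lower. Fdps, the farnesyl diphosphate synthase, had 12.8, 25.6 and 19.1 CPM on chow and 3.59 to 8.17 CPM on HFD without overlap (log2 fold change -1.63). Its adjusted p was 0.0523 with edgeR, 0.00579 with DESeq2, 0.00435 with limma-voom and 0.015 in the fit to the 8 Bcl2TG livers alone. Stard4, a sterol carrier, was the other (0.0752 with edgeR, 0.0204 with DESeq2 and 0.0103 with limma-voom).

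Of 20 lipid droplet and PPARgamma target genes 0 were called higher and 2 lower (median 0.13), where WT livers had 10 called higher (median 0.70), and 3 members had a called difference between the genotypes. Cidea, a lipid droplet fusion protein usually found in brown fat, had 3.74, 4.02 and 26.3 CPM on chow and 0.0532, 0.771, 0.309, 0.185 and 1.15 CPM on HFD (log2 fold change -4.56 ± 0.90, adjusted p = 0.0113). Chow-fed liver 3 held most of the chow level, and without it the log2 fold change was -3.02 (adjusted p = 0.124), although all HFD-fed livers were below the other chow-fed livers too. Abhd5, a cofactor of triglyceride lipase, fell by 0.52 on the log2 scale, at an adjusted p of 0.0494 that rose to as much as 0.21 with single livers left out. Cidec, the related fusion protein, had 10.5, 10.6 and 25.4 CPM on chow and 3.03 to 17.9 CPM on HFD (log2 fold change -0.94 ± 0.53, adjusted p = 0.433), against a WT mean of 8.35 CPM on chow and 60.7 CPM on HFD (difference -3.82 ± 0.79, adjusted p = 0.0445). Pparg itself, the nuclear receptor, had overlapping levels of 14.8 to 22.0 CPM on chow and 9.07 to 20.7 CPM on HFD.

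Among fatty acid carriers and receptors, 2 of 16 members were called higher and 2 lower (1.32% and 1.26% over all genes). Vldlr, the receptor for triglyceride-rich particles, had 1.09, 1.19 and 1.94 CPM on chow and 8.78, 4.96, 10.2, 5.32 and 9.06 CPM on HFD (log2 fold change 2.46 ± 0.35, adjusted p = 0.00181), and it rose in WT and S100a8f/f livers too (log2 fold changes 3.41 and 2.85). Fabp2, the fatty acid carrier of the intestine, had 57.1, 71.1 and 71.3 CPM on chow and 117 to 328 CPM on HFD, with the top value in liver 6. Acsl4, an arachidonate-preferring acyl-CoA ligase, and Fabp5 were the lower members. The calls of Fabp2 and Acsl4 were lost without chow-fed liver 1 or 2, at adjusted p up to 0.0765 and 0.0846. Cd36, the fatty acid translocase, had 59.3, 44.5 and 123 CPM on chow and 50.6, 95.5, 85.6, 65.6 and 146 CPM on HFD (log2 fold change 0.23 ± 0.34, adjusted p = 0.801). Its groups overlapped in Bcl2TG, whereas the WT mean went from 39.3 to 276 CPM, and the difference was called (-2.58 ± 0.49 on the log2 scale, adjusted p = 0.0277).

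Of 41 genes of fatty acid oxidation, ketogenesis and PPARalpha targets, 3 were called higher and 0 lower (median 0.21), against 17 higher in WT (median 0.46). Over all genes tested 1.32% were called higher in Bcl2TG. Bdh1, which interconverts the ketone bodies, had 247, 258 and 234 CPM on chow and 328, 369, 410.3, 453 and 501 CPM on HFD (log2 fold change 0.74 ± 0.13, adjusted p = 0.00619). The acyl-CoA thioesterase genes Acot4 and Acot3, close copies of each other, had log2 fold changes of 1.29 and 2.21. The diet groups of Acot3 overlapped (8.19 CPM in chow-fed liver 3, 4.4 CPM in the lowest HFD-fed liver), and its call (adjusted p = 0.0486) was lost without chow-fed liver 1 or 2 or HFD-fed liver 1, 3, 5 or 6 (0.0612 to 0.24), with RLE size factors and in the robust fit. Acot4 was at 0.0584 without chow-fed liver 1 or 2. Apoa4, the apolipoprotein of fat transport, had 14.6, 40.0 and 30.2 CPM on chow and 38.9, 139.6, 99.2, 61.9 and 158 CPM on HFD, with HFD-fed liver 1 within the chow range (log2 fold change 1.82 ± 0.45, adjusted p = 0.0396, and 0.0684 to 0.2 without any chow-fed liver or HFD-fed liver 2, 3 or 6). The rise in WT was larger, from a mean of 18.5 to 558 CPM, and the difference of -3.10 ± 0.61 was called (adjusted p = 0.0331).

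Chaperones of the endoplasmic reticulum, which fold secreted proteins and rise when unfolded protein gathers there, were lower on HFD. Of 22 members 6 were called lower and 0 higher, with 16 at an unadjusted p under 0.05 and a median log2 fold change of -0.47. The WT livers had 18 called lower with a median of -0.74, and the interaction called 0. For 2 of the 6 the start of the gene is shown, because it carries the ER stress response element, CCAAT, 9 free bases (N) and CCACG (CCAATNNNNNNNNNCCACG, searched on both strands), in capitals in the 250 bases before the transcription start. The sequences are from RefSeq (GRCm38.p6), Hspa5 at chr2:34771840-34772089 on the plus strand and Creld2 at chr15:88819396-88819645 on the plus strand, where the match lies on the opposite strand.
Hspa5: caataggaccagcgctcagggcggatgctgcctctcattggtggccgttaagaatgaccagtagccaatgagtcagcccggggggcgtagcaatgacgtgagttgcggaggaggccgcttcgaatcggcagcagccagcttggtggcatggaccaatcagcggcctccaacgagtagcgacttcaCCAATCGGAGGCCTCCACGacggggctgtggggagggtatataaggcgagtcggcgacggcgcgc
Creld2: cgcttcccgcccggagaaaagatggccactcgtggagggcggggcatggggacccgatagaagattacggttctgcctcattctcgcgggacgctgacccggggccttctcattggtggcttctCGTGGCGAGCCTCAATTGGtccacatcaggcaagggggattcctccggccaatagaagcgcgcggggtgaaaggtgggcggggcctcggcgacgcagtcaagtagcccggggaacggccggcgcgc
The element was found in 8 of the 20 members of the list that had a promoter in the RefSeq table (40.0%), in 0.203% of the 10365 tested genes with a promoter and in 0.119% of all 32851 promoters, searched in each from 250 bases before to 50 after the start. A match is a description of the letters and not a shown binding site.

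Creld2, an ER protein with disulfide isomerase activity, had 65.8, 64.8 and 123 CPM on chow and 29.9, 33.2, 21.5, 30.4 and 28.4 CPM on HFD (log2 fold change -1.56 ± 0.24, adjusted p = 0.00225). Hspa5, the chaperone BiP, had 1131, 1147 and 1618 CPM on chow and 747, 828, 601, 692 and 631 CPM on HFD (log2 fold change -0.89 ± 0.18, adjusted p = 0.0148, and 0.115 without chow-fed liver 3). For both, chow-fed liver 3 was the highest of the 8 and no HFD-fed liver reached the chow range. Hyou1, an exchange factor of BiP, and Sdf2l1, its cofactor, fell by 1.37 and 1.25 on the log2 scale, and the other called members were Xbp1, the transcription factor of the response, and Manf. Without chow-fed liver 3, 3 members were called lower, while DESeq2 and a fit to the 8 Bcl2TG livers alone each called 11.

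Clock genes were shifted between the diets. Of 19 measured members 4 were called higher and 2 lower in Bcl2TG, and 4 higher and 6 lower in WT. Dbp, a transcription factor that binds D-boxes and peaks once a day, had 4.4, 2.17 and 13.1 CPM on chow and 79.0, 34.6, 106, 39.9 and 76.1 CPM on HFD (log2 fold change 3.39 ± 0.50, adjusted p = 0.0019). The activators that act in the opposite phase were lower. Bmal1 had 22.9, 26.7 and 23.2 CPM on chow and 7.77, 15.5, 5.48, 8.89 and 7.22 CPM on HFD (log2 fold change -1.44 ± 0.23, adjusted p = 0.0027), and its relative Npas2 fell by 2.03 on the log2 scale. Liver 2 had the highest Bmal1 and the lowest Dbp level of the HFD-fed group.

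Tef, a relative of Dbp, had 53.0, 55.5 and 79.2 CPM on chow and 104 to 195 CPM on HFD (log2 fold change 1.19 ± 0.22, adjusted p = 0.00724, and 0.0584 without chow-fed liver 1 or 2). Hlf, the third relative, had a log2 fold change of 0.62. Per3, a repressor of the clock, had 4.75, 3.91 and 7.93 CPM on chow and 26.4, 12.8, 38.3, 10.8 and 26.0 CPM on HFD (log2 fold change 2.06 ± 0.39, adjusted p = 0.00869). Livers 2 and 5 were the lowest of the HFD-fed group for Per3, Tef and Dbp alike. The 250 bases before the start of Per3 (RefSeq, GRCm38.p6, chr4:151044666-151044915 on the minus strand, printed along the gene's strand) are shown because they hold the D-box TTATGTAA 2 times, in capitals, the letters that Dbp, Tef and Hlf bind.
Per3: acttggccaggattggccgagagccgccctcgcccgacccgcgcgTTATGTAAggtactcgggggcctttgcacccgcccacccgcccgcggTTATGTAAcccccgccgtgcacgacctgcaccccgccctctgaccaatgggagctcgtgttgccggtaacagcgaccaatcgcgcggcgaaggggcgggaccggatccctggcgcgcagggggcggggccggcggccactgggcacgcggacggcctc
The D-box, searched on both strands, was found in 1 of 16 clock genes with a promoter in the table and in 0.938% of all promoters. In S100a8f/f livers Dbp did not pass the test (log2 fold change 0.04, adjusted p = 0.916), nor did Bmal1 (-0.18) or Per3 (-0.04), and Tef was lower (-0.43, adjusted p = 0.0038). Times of day at which the livers were taken are not given in the sources used here, so a difference of collection time and a diet effect cannot be told apart for these genes.

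In the urea cycle and amino acid list a single gene, Csad, held one of the firmest responses. Csad, which makes the taurine precursor hypotaurine from cysteine, had 433, 433 and 379.5 CPM on chow and 29.0, 44.8, 37.6, 71.1 and 55.3 CPM on HFD (log2 fold change -3.13 ± 0.34, adjusted p = 0.00022). The diet groups were far apart, and Csad fell in WT and S100a8f/f livers as well (log2 fold changes -2.66 and -1.59). Oat, the ornithine aminotransferase, and Mat1a, which makes S-adenosylmethionine, had log2 fold changes of 0.86 and 0.55 (adjusted p = 0.0333 and 0.0365), and their calls were less firm. That of Oat was lost when any chow-fed liver or HFD-fed liver 1, 2, 5 or 6 was left out (0.0537 to 0.175). That of Mat1a was lost when any chow-fed liver or HFD-fed liver 1, 2 or 3 was left out (0.0631 to 0.209). Among the 44 members of the urea cycle and amino acid list Csad, Oat and Mat1a were the only called genes, 2 higher and 1 lower (median 0.16). The shares beside this count are 1.32% higher and 1.26% lower over all genes, and 9.79% of listed genes in either direction. Asns, the asparagine synthetase and a target of the integrated stress response, had 1.99, 2.64 and 1.21 CPM on chow and 0.0532 to 0.488 CPM on HFD (log2 fold change -2.85 ± 0.55, adjusted p = 0.0102, and 0.0721 without chow-fed liver 2), while Trib3, another target of that response, rose (log2 fold change 1.32, adjusted p = 0.0445, and up to 0.225 with single livers left out).

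Hamp2, a close copy of the gene of the iron hormone hepcidin, had 2.8, 5.54 and 8.56 CPM on chow and 46.0, 23.1, 40.9, 35.5 and 108 CPM on HFD (log2 fold change 3.18 ± 0.57, adjusted p = 0.00627). Liver 6 was the highest, and all HFD-fed livers were above the chow-fed ones. Rgs16, a brake on G protein signaling, had 5.26, 12.5 and 19.8 CPM on chow and 36.0 to 142 CPM on HFD (log2 fold change 2.61 ± 0.57, adjusted p = 0.0193, and 0.113 and 0.106 without chow-fed liver 1 and 2). Hmox1, the heme oxygenase and 1 of 19 measured NRF2 targets called, had a log2 fold change of 0.88. Its call was lost without chow-fed liver 1 or 2 (adjusted p = 0.0591 and 0.103). Of the bile acid genes Cyp39a1, an oxysterol hydroxylase, and Abcg5, a sterol exporter, were higher and Cyp2c70, which makes muricholic acids, was lower (2 higher and 1 lower of 22). Over all genes 1.32% were called higher and 1.26% lower, and 9.79% of listed genes in either direction. The calls of Cyp39a1, Abcg5 and Cyp2c70 were lost with single livers left out, at adjusted p up to 0.0895, 0.213 and 0.2.

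The lowest fold changes belonged to genes of mixed roles. Serpina4-ps1, a serpin pseudogene, had 526, 598 and 409 CPM on chow and 6.99, 12.6, 13.6, 50.3 and 21.8 CPM on HFD (log2 fold change -4.61 ± 0.63, adjusted p = 0.00127), and reads of related serpins may be counted there. Srgap3, a GTPase-activating protein of the cytoskeleton, and Peg10, an imprinted gene of retroviral origin, fell by 3.25 and 3.08 on the log2 scale. Xirp1, an actin-binding protein of striated muscle, had 1.28, 2.03 and 1.21 CPM on chow and at most 0.231 CPM on HFD. Its adjusted p was 0.0189, and 0.0523 to 0.103 without chow-fed liver 1 or 2 or HFD-fed liver 1. At the upper end Nipal1, a magnesium transporter, and Pde6c, a phosphodiesterase of cone cells, had log2 fold changes of 3.16 and 2.87, and the transcripts 1810053B23Rik and BB365896 had 3.74 and 3.10 from at most 0.21 CPM on chow. The calls of Nipal1 and BB365896 were lost when any chow-fed liver or HFD-fed liver 1 or 6 was left out (0.0505 to 0.164 and 0.0616 to 0.191). That of 1810053B23Rik was lost when any chow-fed liver or HFD-fed liver 1 was left out (0.0535 to 0.144). BB365896 was also not called in the fit to the 8 Bcl2TG livers alone (0.104) or in WT livers (log2 fold change 0.25).

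Genes of zonation and of inflammation were also called. Of 23 pericentral and periportal genes, 5 were called higher and 1 lower (median 0.35), with 13 at an unadjusted p under 0.05. Beside them stand 1.32% higher and 1.26% lower over all genes, and 9.79% of listed genes in either direction. Rnf43, a target and brake of Wnt signaling, had 12.5, 18.6 and 16.7 CPM on chow and 37.2, 36.0, 37.6, 27.2 and 25.3 CPM on HFD (log2 fold change 1.04 ± 0.23, adjusted p = 0.0209, and 0.0521 to 0.14 without any chow-fed liver or HFD-fed liver 1 or 3), and Tbx3, a transcription factor of pericentral hepatocytes, had a log2 fold change of 1.16. Slc1a2, Lect2 and Oat were the other higher members and Cyp2f2, a periportal P450, the lower one. The calls of Slc1a2, Lect2 and Oat were lost when any chow-fed liver was left out, at adjusted p up to 0.101, 0.12 and 0.175. Among interferon-stimulated genes, 4 of 31 were called higher and 0 lower (median 0.51, WT 12 higher and 1 lower). That count stands beside the 1.32% of all genes called higher and the 9.79% of listed genes called. Ifit3 had 3.58, 6.44 and 4.67 CPM on chow and 6.94 to 14.4 CPM on HFD (log2 fold change 1.19 ± 0.26, adjusted p = 0.0198, and 0.132, 0.0946 and 0.052 without chow-fed liver 1 or 3 or HFD-fed liver 1), and Oas1a, Usp18 and Gbp3 were the others. Their calls were also lost with single livers left out, at adjusted p up to 0.157, 0.212 and 0.2. The acute phase list had 2 of 24 higher, Serpina3n (log2 fold change 0.75, adjusted p = 0.0376, and up to 0.164 with single livers left out) and Il6ra. The same 1.32% and 9.79% stand beside this count.

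In all, 9 of the 32 pathway lists had no member called by edgeR in Bcl2TG livers, but DESeq2 called members in 7 of the 9 and limma-voom in 8. They were the matrix and cholesterol lists and those of heat shock proteins, complement and coagulation, oxidative phosphorylation, MHC, chemokines with interleukins and TNF family, annexins and S100 proteins, and the BCL2 family, with medians between -0.52 and 0.33. Ccl2, the chemokine that draws monocytes, had 0.818, 0.471 and 0.21 CPM on chow and 0.46 to 0.874 CPM on HFD (adjusted p = 0.759). S100a8 had 0.157 to 0.623 CPM on chow and 0.286 to 0.488 CPM on HFD (adjusted p = 0.985), and S100a9, its partner, 0.262 to 0.35 CPM and 0.417 to 1.89 CPM (log2 fold change 1.70 ± 0.57, adjusted p = 0.133 with edgeR and 0.046 with DESeq2). Of 15 marker lists with a measured member, 12 had no call by edgeR (DESeq2 had calls in 4 of them and limma-voom in 7), among them those of adipocytes (4 measured, Adipoq and Plin1 not analysed here), smooth muscle, cholangiocytes, neutrophils and T cells.

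Genes whose diet effect differed between the genotypes stood at an unusual level in the chow-fed Bcl2TG livers in several cases. Myc, the growth transcription factor, had 10.9, 14.4 and 11.3 CPM on chow and 1.06, 1.47, 1.05, 2.82 and 0.46 CPM on HFD (log2 fold change -3.17 ± 0.42, adjusted p = 0.00121). The WT livers had 2.08 to 2.95 CPM on chow and 1.47 to 5.36 CPM on HFD, so the chow-fed Bcl2TG livers were above all the others, and the difference of diet effects was -3.61 ± 0.62 on the log2 scale (adjusted p = 0.0268). Zfp809, a silencer of retroviral DNA, had 57.6, 57.9 and 48.6 CPM on chow and 18.5 to 28.7 CPM on HFD, and 19.5 to 28.5 CPM in the WT livers of either diet (difference -1.08 ± 0.20, adjusted p = 0.0268). The same order was seen for Tuft1, with a chow-fed Bcl2TG mean of 13.7 CPM and means of 5.22, 6.56 and 6.16 CPM in the HFD-fed Bcl2TG, chow-fed WT and HFD-fed WT livers (difference -1.30 ± 0.24, adjusted p = 0.0268).

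Slc25a30, a mitochondrial carrier, fell in Bcl2TG and rose in WT. It had 166, 111 and 118 CPM on chow and 21.2, 42.7, 60.9, 78.3 and 40.1 CPM on HFD (log2 fold change -1.44 ± 0.31, adjusted p = 0.0192, and 0.122 and 0.0536 without chow-fed liver 1 and 2), against WT levels of 18.2 to 22.3 CPM on chow and 36.5 to 74.0 CPM on HFD. Map4k4, a stress kinase, Alas1, the first enzyme of heme synthesis, and Gpr146, an orphan receptor, were the other 3 genes with opposite calls, with log2 fold changes of -0.62, -1.0 and -0.51 in Bcl2TG and 0.62, 0.86 and 0.38 in WT. The Bcl2TG call of Map4k4 was lost without any of the chow-fed livers (0.149, 0.136 and 0.0502) and without HFD-fed liver 2 (0.0546). Il6ra, the interleukin-6 receptor, had 21.9, 17.5 and 17.2 CPM on chow and 49.7, 51.1, 43.3, 64.9 and 40.0 CPM on HFD (log2 fold change 1.40 ± 0.22, adjusted p = 0.00269), so all HFD-fed Bcl2TG livers were higher. Its WT means were 33.9 and 32.9 CPM, and the difference was 1.44 ± 0.30 on the log2 scale (adjusted p = 0.0422).

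Onecut1 and Socs2, a hepatocyte transcription factor and a feedback inhibitor of growth hormone signaling, had the same look without a called difference. Onecut1 had 48.3, 49.0 and 48.9 CPM on chow and 3.86, 4.76, 14.4, 7.17 and 2.71 CPM on HFD (log2 fold change -2.88 ± 0.47, adjusted p = 0.00322), and WT means of 5.0 and 4.02 CPM. Socs2 had 87.9, 86.4 and 51.0 CPM on chow and 5.3 to 29.0 CPM on HFD, and WT means of 10.3 and 10.2 CPM. Its diet call was lost without chow-fed liver 1 or 2 (adjusted p = 0.0543 for either). The interaction adjusted p were 0.112 for Onecut1 and 0.129 for Socs2. In the same fit chow-fed Bcl2TG against chow-fed WT livers had adjusted p of 0.00724 for Slc25a30, 0.00784 for Zfp809 and Gpr146, 0.0273 for Tuft1 and Onecut1, and 0.0448 for Alas1. Not called were Socs2 (0.0617), Myc (0.0786), Il6ra (0.262) and Map4k4 (0.51). All 3 chow-fed Bcl2TG livers are also the reference of each fold change here, and the comparison with chow-fed WT livers shares them, so it is no independent support.

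**Figure D5:**
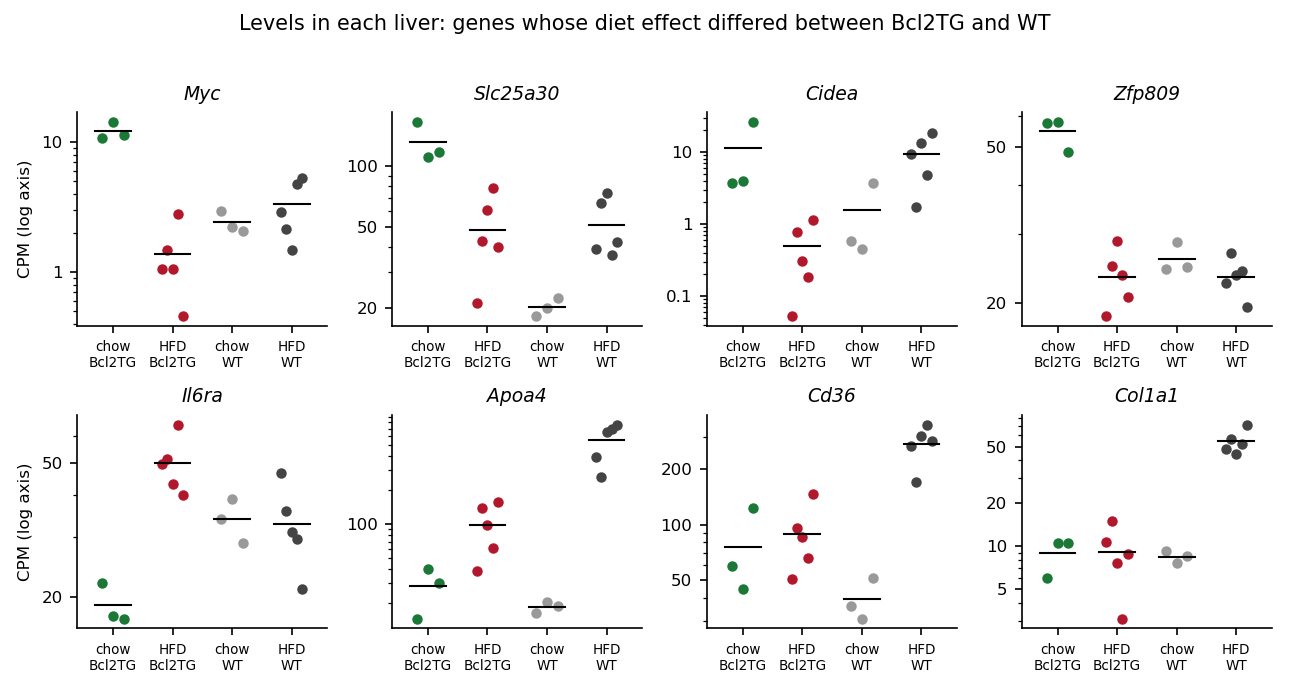
CPM on a log axis of 8 genes with a called difference of the diet effect between Bcl2TG and WT, where each point is a liver and each line the group mean. Myc, Slc25a30 and Zfp809 are highest in the chow-fed Bcl2TG livers, while Apoa4, Cd36 and Col1a1 are highest in the HFD-fed WT livers.

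The S100a8f/f livers, a separate cohort counted and normalized on its own, gave a further look at which responses recur. Their length of diet may not match that of the Bcl2TG livers. There 14.5% of 13817 genes were called higher and 13.0% lower. Of the 184 genes higher in Bcl2TG that were tested there, 75 (40.8%) were called higher and 11 lower, and of 173 lower ones 67 (38.7%) were called lower and 17 higher. Called in the same direction in Bcl2TG, WT and S100a8f/f livers were 68 higher and 57 lower genes. They include, among those described above, Cyp2b9, Cyp2b13, Hao2, Cyp17a1, Vldlr, Hamp2, Rgs16, Fabp2, Sult1c2, Cd5l, Folr2, Hmox1, Bdh1, Mki67, Mcm3, Mcm6, Ifit3 and Apoa4 on the higher side, and Cyp2b10, Cyp4a12b, Cyp3a11, Cyp2c29, Csad, Asns, Serpina4-ps1, Srgap3, Creld2, Sdf2l1, Xbp1 and Manf on the lower. Il6ra went the other way there (log2 fold change -0.98, adjusted p = 0.000593). C1qa, C1qb, C1qc, Clec4f and Vsig4 rose in Bcl2TG and WT but were not called in S100a8f/f livers, where their log2 fold changes were 0.40, 0.76, 0.63, 0.34 and 0.43.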

How the data were processed

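Polyadenylated RNA of livers (TRIzol extraction, Illumina HiSeq) was counted per gene, and the authors deposited 2 tables of raw counts, one for each experiment. The submitters' processing notes name FastQC, Trimmomatic, HISAT2, SAMtools, featureCounts and DESeq2, with the GRCm38 build and no versions. The tables also hold the authors' own DESeq2 comparison of genotypes on HFD (mean level, fold change, its error, test statistic, p-values and a rank), which was not used. The first table had 14628 entries for 14436 genes (repeated entries held identical counts and 1 was kept) and the second 14030 entries for 13817 genes. The lowest mean count of a gene was 7.12 and 8.67, so the tables start above the lowest counts. Names and positions of 14425 and 13809 genes matched GENCODE M21 (GRCm38), and sequences came from RefSeq (GRCm38.p6).

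The 16 livers of the first experiment were fitted together as 4 groups in edgeR 4.0.16 (R 4.3.3, TMM, quasi-likelihood test, no covariate), and the S100a8 experiment separately. The edgeR filter on low counts removed no gene. P-values were adjusted over all genes by the Benjamini-Hochberg method, with 0.05 as the threshold, and measure the spread between these libraries. Principal components used log2 CPM with a prior count of 2. The genes named were the 12 highest and 12 lowest fold changes among called genes without overlap and with at least 1 CPM, the 6 smallest p-values of the interaction, up to 4 called members of each gene list (otherwise 2) and the genes the study names, 1 of which, Ccn3, was not analysed here. Other names were added after their values were seen. Members and lists were chosen with earlier results of these data known. The fits were tested on simulated data. Alternatives were DESeq2 1.42.0, limma 3.58.1 (voom), other size factors and filters, a robust fit, only the Bcl2TG livers, terms for the livers' numbers, and each liver left out in turn. Figures were drawn with matplotlib 3.10.9 in Python 3.11.15.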

Additional observations from a re-analysis of the deposited data

Results flagged for a closer look

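For 11 of 132 genes and groups of 5 HFD-fed livers examined, 1 liver lay far from the other 4, where chance gives about 1 in 20 independent groups. These groups are not independent, because the genes were measured in the same livers and some were chosen after their values were seen. The count therefore cannot be set against that rate. In the HFD-fed Bcl2TG livers, liver 6 was the highest for Hamp2 (108.0 CPM), Fabp2 (328.0 CPM) and Tbx3 (61.3 CPM). Liver 3 was the highest for 5 genes, with 58.6 CPM of Cyp17a1, 24.0 CPM of Hmox1, 27.8 CPM of Adgre1, 45.9 CPM of Marco and 35.4 CPM of Spp1, which encodes osteopontin. Liver 5 was the lowest for the MHC class II gene H2-DMa (2.13 CPM), and liver 1 for the macrophage elastase gene Mmp12 (0.213 CPM). In the HFD-fed WT livers, liver 1 was the highest for Bcl2 (21.3 CPM).

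The diet effect differed between Bcl2TG and WT livers by the interaction test for 12 of the genes chosen by the naming rule, given as the log2 difference of Bcl2TG minus WT. It was -7.21 for Cidea, -3.82 for Cidec, -3.61 for Myc, -3.10 for Apoa4, -2.80 for Slc25a30, -2.67 for Col1a1, -2.58 for Cd36, -2.06 for Gm8834, -1.30 for Tuft1, -1.24 for Map4k4 and -1.08 for Zfp809. Of these 12, Il6ra had the 1 positive value (1.44). Cyp7b1 (1.92), Alas1 (-1.86) and Gpr146 (-0.89), which lie outside that rule, also had called differences. None of these differences was called without chow-fed Bcl2TG liver 3.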

How the results depend on the processing

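Counts of called genes depended on the tool and on single livers. The 373 genes called for diet in Bcl2TG livers became 791 with DESeq2 and 2006 with limma-voom, and 115 to 365 with single livers left out. Other size factors, filters and the robust fit stayed within 1.5 times of 373, and no filter changed nothing because no gene had been removed. The WT count of 2220 became 3342 with limma-voom. The 70 interaction calls became 409 with DESeq2, 561 with limma-voom, 110 with a term for livers 1 to 3 against 4 to 6, and 0 to 175 with single livers left out.

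The correlations of deviations of same-numbered chow-fed and HFD-fed Bcl2TG livers were 0.11, -0.05 and -0.01, and 1 of 3 chow-fed livers correlated best with its own number. With 3 chow-fed livers this check cannot exclude a pairing. No chow-fed liver shares a number with HFD-fed livers 5 and 6, so the check does not cover those livers. With the number as a replicate block, 311 genes were called for diet in Bcl2TG and 29 for the interaction.

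With single livers left out, the called members were 3 to 9 (higher) for Kupffer cells, 1 to 7 (lower) for male-biased genes, 4 to 8 (higher) for female-biased genes, 0 to 2 (higher) for collagen and matrix, and 3 to 6 (lower) for ER chaperones. The ER chaperones had 11 called lower with DESeq2 and 11 with only the 8 Bcl2TG livers. Of the 86 named called genes, 31 stayed called in every alternative, 1 more (Pde6c) in all but DESeq2, which gave it no adjusted p, and 0 changed direction. Genes that were not called changed sign. Plin2 was -0.06 (log2) with the replicate block and -0.04 with livers 1 to 3 only, and S100a8 was 0.02 with limma-voom and 0.02 with the block. With single livers left out, the log2 fold changes ran from -0.04 to 0.77 for Cd36, -0.03 to 0.82 for Ccl2, -0.25 to 0.24 for Col1a1, -0.35 to 0.50 for S100a8 and -0.03 to 0.31 for Lpl. With 3 chow-fed livers, a gene without a call is not shown to be unchanged.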

Other observations

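Single called genes outside the lists described above are given here, chosen after their values were seen. Tyrobp, the adaptor of myeloid receptors, had 3.43, 2.57 and 3.36 CPM on chow and 7.66, 6.02, 10.4, 6.9 and 7.59 CPM on HFD (log2 fold change 1.31, adjusted p = 0.0027). The transcription factor genes Spi1 and Spic had log2 fold changes of 1.43 and 1.35 (adjusted p = 0.00711 and 0.0181), and Fcgr3 and Lyz2, which encode an IgG receptor and a lysozyme, had 1.15 and 1.17.

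Igha, the constant chain gene of immunoglobulin A, had 10.5, 13.0 and 6.25 CPM on chow and 1.3, 2.29, 2.05, 0.972 and 2.21 CPM on HFD (log2 fold change -2.48, adjusted p = 0.00213), and it was lower in WT livers too (-2.53). Foxa2, a transcription factor of hepatocytes, had 88.6, 90.4 and 83.9 CPM on chow and 39.5, 34.3, 44.8, 67.0 and 34.9 CPM on HFD (log2 fold change -0.99), while the WT means were 32.2 and 31.4 CPM. Of the 373 called genes, 290 were in none of the lists.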
